A study of Homo sapiens with 13 samples.

Results

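The genes described here are 36 genes of the cell cycle and of DNA replication, taken by gene symbol from the 58581 genes of the RNA count table. All 36 were found and all passed the filter on low counts, as 36 of the 22007 genes tested between the 2 genotypes. By the role of their products, 10 were placed with G1 and the entry into S phase, and 15 with G2 and mitosis. The remaining 11, of helicase loading, DNA replication and nucleotide synthesis, are called S phase genes here, although helicase loading takes place in G1. The smallest count of any of them in a WT or P95H library was 220.

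Progress through the cell cycle is driven by cyclin-dependent kinases (CDKs), each active only when bound to a cyclin. D-type cyclins with CDK4 and CDK6, and then E-type cyclins with CDK2, inactivate the retinoblastoma protein and release E2F transcription factors, which switch on genes of DNA replication. The MCM proteins form the replicative helicase that is loaded on DNA in G1 and fired in S phase. CDK1 with cyclins A and B, the Polo and Aurora kinases, and the checkpoint kinases of the BUB family then carry the cell through mitosis. Messenger RNAs of the last group are made mainly in late S, G2 and M phase under FOXM1 and the MuvB complexes, so in a growing culture their pooled level follows both how many cells are in each phase and how much RNA each cell holds.

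The cells were HEL, a human erythroleukemia line, stably expressing the splicing factor SRSF2 either as wild type (WT) or with the P95H substitution, a change that recurs in myelodysplastic syndromes. After rRNA depletion, RNA was sequenced from cells kept with doxycycline at 1 µg/ml for 48 hours, 2 samples of each genotype. It was also sequenced from 1 P95H sample labelled uninduced. HITS-CLIP, which fixes RNA to a bound protein with ultraviolet light, pulls the protein down (here by its Flag tag) and sequences the RNA, was run on 4 samples of each genotype kept for 36 hours with doxycycline at 1 µg/ml. The labels name the numbered samples biological replicates without saying that they came from separate cultures, so p-values measure the spread between these samples, which may be technical. The sources used here do not name the promoter of the construct, the number of clones in each line or the share of SRSF2 that came from the cells' own gene.

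RNA libraries held 37414093 to 45005605 counts, at which 3 counts were worth 0.0667 to 0.0802 CPM (counts scaled to a common library size), and the 36 genes took 0.872% to 0.956% of them. SRSF2 stood at 222 and 241 CPM in WT, 223 and 252 CPM in P95H and 285 CPM in the uninduced library, where it was highest. Its log2 difference of P95H minus WT was 0.05 (SE 0.11, edgeR adjusted p 0.9999), and counts cannot tell the construct from the cells' own gene. Mitochondrially encoded genes took 1.38% of counts in both replicate 1 libraries, 4.5% and 4.3% in the replicate 2 libraries and 4.14% in the uninduced one, a difference that follows the replicate number and not the genotype. Of 10 erythroid markers 10, and of 8 megakaryocyte markers 7, were at 1 CPM or more in every library (PF4, the remaining one, was at 0 in 4 libraries). Markers of other cells were low: lymphoid genes summed to 5.65 to 8.05 CPM and granulocyte and monocyte genes to 8.65 to 13.9 CPM (ELANE at 0), and epithelial and fibroblast genes to 33.7 to 44.3 CPM, most of it KRT18 (EPCAM and KRT19 at 0).

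Regulatory letters known for cell cycle promoters were looked up first, since they describe the genes without use of the counts. RefSeq promoter entries (GRCh38.p14, 300 bases each, 250 before and 50 after the start of transcription) matched 28 of the 36 genes in 37 entries. In all, 3 kinds of letters were searched on both strands, with overlapping matches of a kind merged: the E2F letters TTTCCCGC, TTTCGCGC, TTTGCCGC and TTTGGCGC, the CHR letters TTTGAA and TTCGAA (the cell cycle genes homology region read by MuvB complexes), and CCAAT, read by the factor NF-Y. The 4 stretches below lie before the start of transcription, are printed 5′ to 3′ on the gene's strand and carry every match in capitals. MCM6, a helicase subunit, and CDC25A, the phosphatase that activates CDK2, show E2F letters beside CCAAT, which reads ATTGG on the other strand. CENPF, a kinetochore protein, shows CCAAT in both orientations, and MKI67, the proliferation antigen, shows CHR letters, the second of them joined to an ATTGG. MCM6 and CENPF differed between replicate numbers in the RNA data further on, and MKI67 had untested genotype differences of opposite sign in the 2 numbers.
MCM6 (chr2:135876444-135876613, minus strand): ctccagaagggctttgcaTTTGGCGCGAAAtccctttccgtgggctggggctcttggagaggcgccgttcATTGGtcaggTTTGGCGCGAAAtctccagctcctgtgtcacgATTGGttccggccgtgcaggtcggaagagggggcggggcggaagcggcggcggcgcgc
CDC25A (chr3:48188418-48188537, minus strand): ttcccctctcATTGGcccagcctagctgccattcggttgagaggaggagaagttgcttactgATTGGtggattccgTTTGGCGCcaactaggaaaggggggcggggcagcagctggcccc
CENPF (chr1:214603075-214603194, plus strand): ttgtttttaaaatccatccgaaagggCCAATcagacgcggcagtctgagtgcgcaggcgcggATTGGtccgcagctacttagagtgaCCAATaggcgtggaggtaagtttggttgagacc
MKI67 (chr10:128126424-128126543, minus strand): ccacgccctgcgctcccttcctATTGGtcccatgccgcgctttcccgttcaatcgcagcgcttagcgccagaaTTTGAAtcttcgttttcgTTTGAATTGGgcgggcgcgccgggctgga

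E2F letters stood in the promoters of 7 of 9 S phase genes, 2 of 6 G1/S genes and 1 of 13 G2/M genes, against 3.99% of all 27305 genes with an entry (3.31% of entries). The 7 were CDC6, MCM2, MCM3, MCM6, MCM7, PCNA and TYMS, and the G1/S pair was CDC25A and E2F1, the transcription factor itself. In MCM6, where overlapping matches on the opposite strands merge into a longer run, such runs lay 152 to 141 and 90 to 79 bases before the start. CHR letters were found in 9 of 13 G2/M genes, 2 of 9 S phase genes and 0 of 6 G1/S genes, against 19.5% of all genes (16.4% of entries). In MKI67 they lay 47 to 42 and 29 to 24 bases before the start, and in BUB1B 23 to 18. CCAAT stood in 11 of 13 G2/M, 7 of 9 S phase and 3 of 6 G1/S genes, against 39.7% of all genes (34.6% of entries). RRM2, the small subunit of ribonucleotide reductase, held 3 copies, the farthest 123 bases before the start of the first of its 2 entries. In the 250 bases before the start alone, E2F letters remained in 5 of 9 S phase genes and CHR letters in 7 of 13 G2/M genes. Shares of all genes in the shorter window were 3.4% and 17.2%. These are matches of letters in a window, not binding sites.

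**Figure D1:**
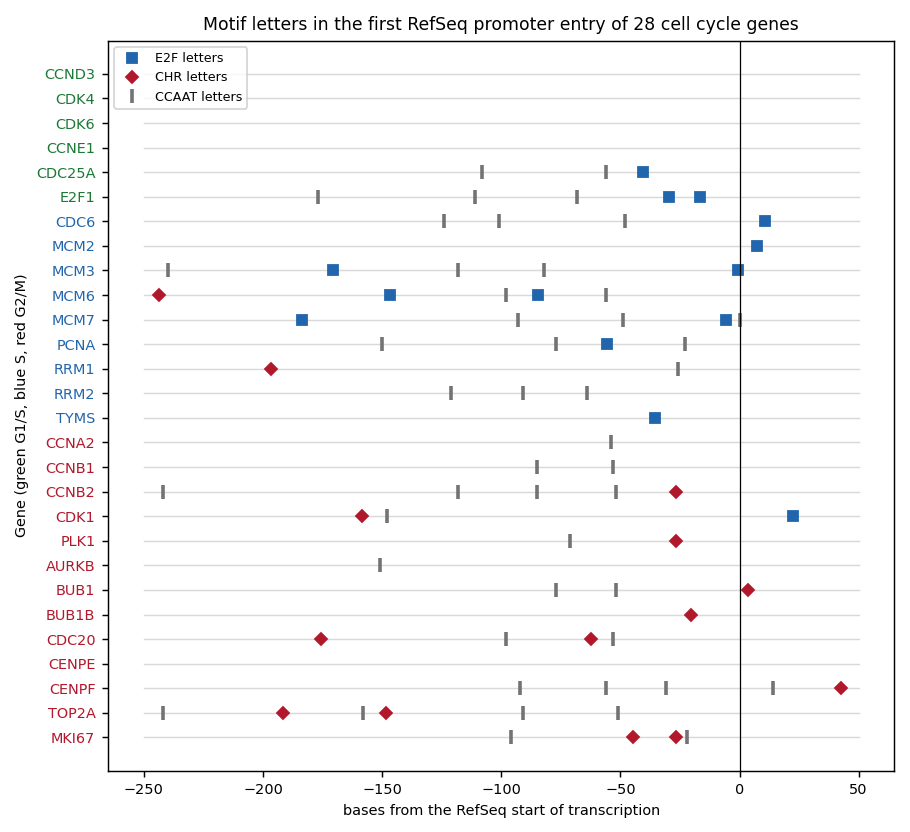
Positions of E2F, CHR and CCAAT letters in the first RefSeq promoter entry of the 28 genes that have one, with the distance from the start of transcription on the x axis in bases. E2F letters (blue squares) lie mainly in S phase genes and CHR letters (red diamonds) mainly in G2/M genes.

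P95H was set against WT to ask which of these genes change with the mutant factor. None of the 36 passed the test for a difference between the genotypes. In the fit on group alone edgeR's quasi-likelihood test passed 0 of the 36 at a Benjamini-Hochberg adjusted p under 0.05 (0 at an unadjusted p under 0.05; DESeq2 0 of 36), where the share of all genes called was 0%, that is 0 of 22007 (227 at an unadjusted p under 0.05). Adding the replicate number as a term, which allows for the difference between numbered libraries, gave 0 of 36 against a background of 0.382%, or 84 genes (41 higher and 43 lower in P95H, 61 and 34 with library totals), with 2 of the 36 at an unadjusted p under 0.05. In that second fit the 95% interval of the log2 difference had a median half-width of 0.154, and 35 of 36 intervals lay within 0.5 on either side of 0. In the fit on group alone, 31 of 36 did. Medians of the log2 difference were -0.07 for G1/S, -0.09 for S phase and 0.02 for G2/M genes in the fit on group alone, against 0.00 for all genes tested. Leaving out WT replicate 2 brought the G1/S median to -0.015, and leaving out P95H replicate 1 to -0.023. The RNA comes from pooled cells, so a change in the share of cells in a phase and a change in the RNA per cell cannot be told apart.

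**Figure D2:**
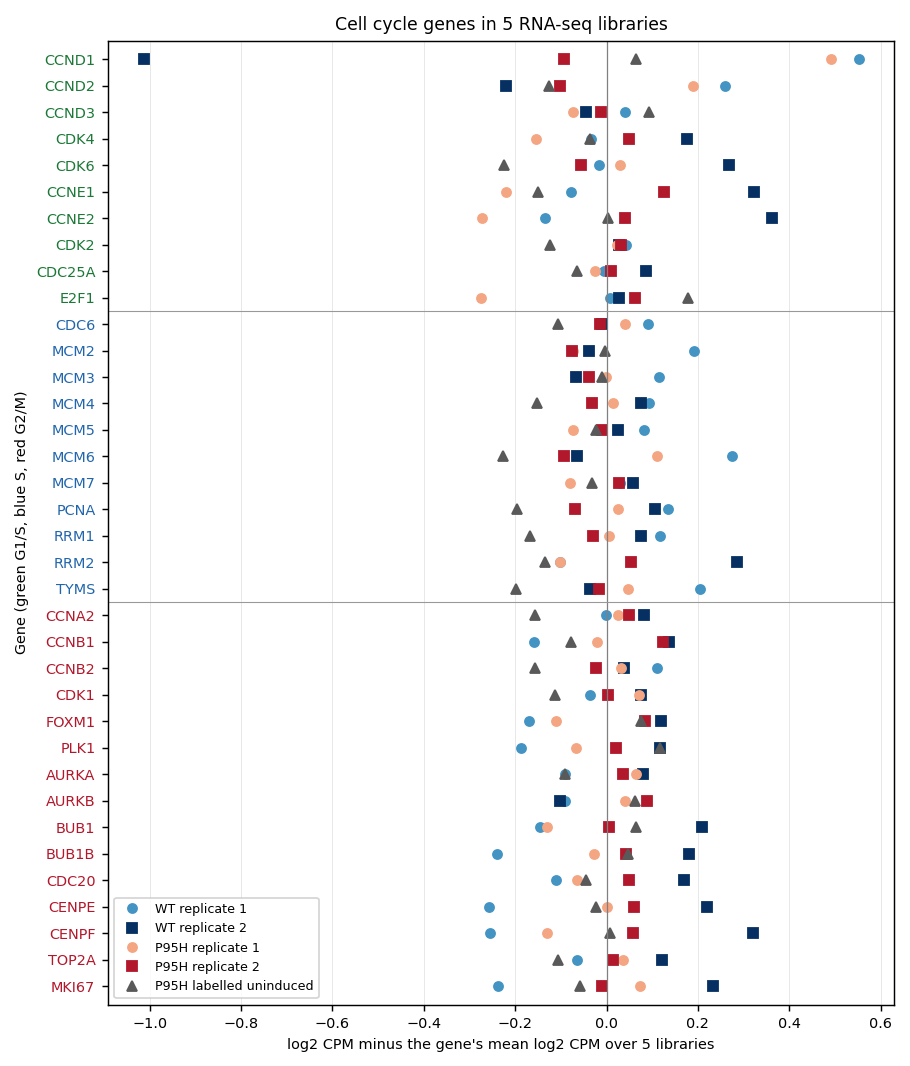
Level of each gene in the 5 RNA-seq libraries as log2 CPM minus the gene's mean over the 5, with 1 point per library. CCND1 in WT replicate 2 lies farthest from its mean, and most G2/M genes are lowest in WT replicate 1 or in the uninduced library and highest in WT replicate 2.

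Levels per library are given below as TMM-scaled CPM in the order WT replicate 1, WT replicate 2, P95H replicate 1, P95H replicate 2 and the uninduced library, and are compared within a gene only, since transcript lengths were not used. CCND1, a D-type cyclin (ENSG00000110092, chromosome 11, 69641087 to 69654474, plus strand, GRCh38), stood at 16.1, 5.46, 15.5, 10.3 and 11.5 CPM. WT replicate 2 was the low library and the genotypes overlapped. Its log2 difference of P95H minus WT was 0.26 (SE 0.48) on group alone and 0.39 (SE 0.15) with the replicate number as a term, edgeR adjusted p 0.390. Taking replicate 1 libraries alone gave -0.06 and replicate 2 libraries alone 0.91. On group alone, the fit without WT replicate 1 gave 1.25 and the fit without WT replicate 2 gave -0.32. CCND1 is overlapped on the other strand by ORAOV1, which held up to 598 counts a library against 220 to 731 for CCND1 in the WT and P95H libraries. As the sources used here do not say whether counting used the strand, reads of overlapping genes cannot be told apart.

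Among the other G1/S genes the differences were smaller. CCNE2, an E-type cyclin that activates CDK2 (ENSG00000175305, chromosome 8), stood at 27.4, 38.6, 24.9, 30.9 and 30.1 CPM. P95H was below WT within both numbers, yet the groups overlapped. The log2 difference was -0.22 (SE 0.09, edgeR adjusted p 0.483) with the replicate number as a term, and on group alone it was 0.03 without WT replicate 2. CCNE2 is also overlapped by genes of the other strand, among them INTS8, with up to 6076 counts a library. CCNE1, the other E-type cyclin, stood at 8.49, 11.2, 7.70, 9.78 and 8.08 CPM and its log2 difference was -0.16 (SE 0.13). The D-type cyclin CCND2 stood at 823, 591, 785, 642 and 631 CPM, high in both replicate 1 libraries, and CCND3 at 212, 199.7, 195.8, 204 and 219.7 CPM. Of the kinases, CDK6 stood at 792, 964, 818, 771 and 685 CPM and CDK2 at 69.5, 68.7, 68.6, 69.0 and 61.9 CPM. The 4 induced libraries thus lay closer together for CDK2 than for CDK6. E2F1 stood at 53.6, 54.3, 44.1, 55.6 and 60.3 CPM, with P95H replicate 1 the low library. With the replicate number as a term the log2 differences of CDK4, partner of the D-type cyclins and of CDC25A were -0.11 and -0.04.

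All 11 S phase genes had a negative log2 difference of P95H minus WT in both fits, from -0.14 for MCM2 to -0.02 for CDC6, and none passed the test. With library totals in place of TMM scaling CDC6 turned to 0.02 on group alone, and with the replicate number as a term MCM3 turned as well, to 0.00. Without WT replicate 1, CDC6 (0.03), MCM3 (0.06), MCM6 (0.09) and TYMS (0.06) turned positive on group alone, and without WT replicate 2 RRM2 did (0.08). Comparing libraries of one number, 11 of 11 were lower in P95H in number 1 and 9 of 11 in number 2, with medians of -0.11 and -0.04. Over all genes these medians were -0.01 and 0.00. MCM2, a helicase subunit (ENSG00000073111, chromosome 3, 127598223 to 127622436, plus strand), stood at 364, 310.3, 303.2, 303 and 318 CPM, with WT replicate 1 high and both P95H libraries lowest. Its log2 difference was -0.14 (SE 0.08, edgeR adjusted p 0.657) with the replicate number as a term. PCNA, the sliding clamp of the replicative polymerases (chromosome 20, 5114953 to 5126626, minus strand), stood at 203, 198.5, 188, 176 and 161 CPM. Both P95H libraries were below both WT libraries, and the difference was -0.13 (SE 0.07, edgeR adjusted p 0.671).

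RRM1, the large subunit of ribonucleotide reductase, which makes deoxyribonucleotides, also had both P95H libraries below both WT libraries, with 220.1, 214, 203.5, 198.7 and 180.7 CPM. The same held for the helicase subunit MCM7, at 263.5, 269, 244, 263.2 and 252 CPM, though WT replicate 1 and P95H replicate 2 were nearly level. MCM4 and MCM5, of the same helicase, had log2 differences of -0.08 and -0.09 with groups that did not overlap. Levels of MCM3 were 524, 462, 483, 471 and 479.6 CPM and those of CDC6, which loads the helicase at origins, 79.9, 74.4, 77.1, 74.2 and 69.6 CPM, and in both the genotypes overlapped. So did those of MCM6, RRM2 and TYMS, the thymidylate synthase, whose log2 differences were -0.09, -0.11 and -0.06. In all, both P95H libraries lay below both WT libraries in 7 of the 36 genes (6 of S phase, and CCNB2 of G2/M) and above them in 1, AURKB. These 8 compare with 24.2% of all genes whose groups did not overlap in either direction. By direction, 2676 of all 22007 genes had both P95H libraries below both WT libraries, and 2659 had both above.

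The G2/M genes had both signs, 11 positive and 4 negative, and none passed. With DESeq2 size factors CCNA2 and TOP2A turned negative, and with library totals CDC20 turned positive. AURKB, the Aurora kinase of the chromosomal passenger complex, stood at 36.9, 36.6, 40.4, 41.8 and 41.1 CPM. Both P95H libraries were above both WT libraries, while the uninduced library was level with them. Its log2 difference was 0.17 (SE 0.09, edgeR adjusted p 0.608) with the replicate number as a term. BUB1, a kinase of the spindle checkpoint, was the next in size at -0.08 (SE 0.08, edgeR adjusted p 0.869). The proliferation antigen MKI67 stood at 678.5, 939.5, 841.5, 795 and 768.5 CPM, WT replicate 1 and 2 being the lowest and the highest, and its log2 difference was 0.05 (SE 0.09). TOP2A, the topoisomerase that untangles sister chromatids, stood at 666.5, 758, 714.5, 704 and 648 CPM, with a difference of 0.01. For CCNA2, CCNB2, CDK1, PLK1, AURKA and CDC20, the activator of the anaphase-promoting complex, the log2 differences ran from -0.06 in CCNB2 to 0.07 in AURKA.

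**Figure D3:**
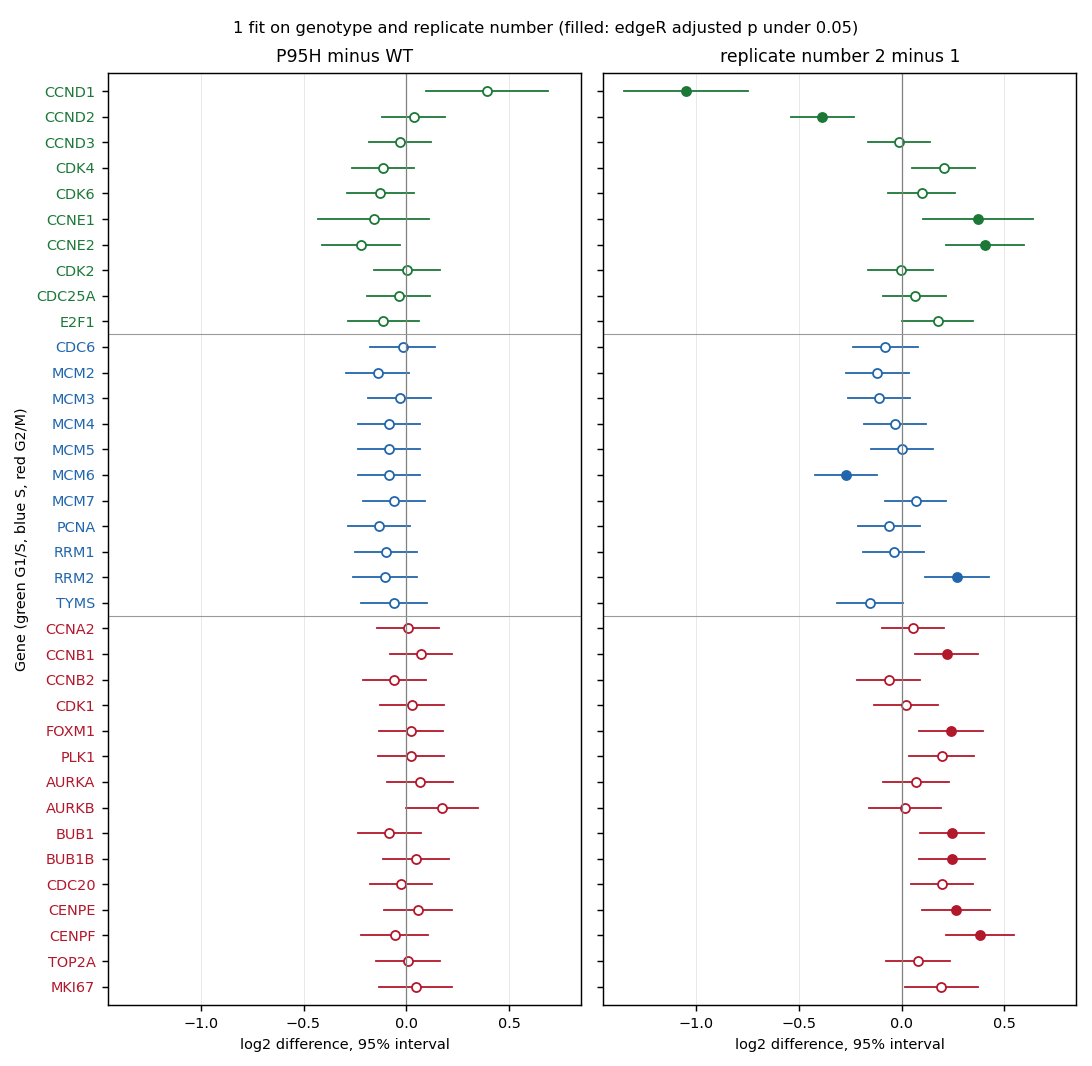
Log2 difference of each gene with its 95% interval from the fit on genotype and replicate number, for P95H minus WT (left) and for replicate number 2 minus 1 (right). No gene is filled on the left, and 12 of 36 are filled on the right, where filled points passed edgeR's test at an adjusted p under 0.05.

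Within replicate numbers the G2/M genes had opposite signs. In replicate 1 libraries 14 of 15 were higher in P95H, with a median log2 difference of 0.12, and in replicate 2 libraries 14 of 15 were lower, with a median of -0.095. Medians over all genes were -0.01 and 0.00, and signs were opposite in 13 of the 15 genes, 2 of the 11 S phase genes and 10067 of all 22007 genes. MKI67 had log2 differences of P95H minus WT of 0.31 in number 1 and -0.24 in number 2. CENPE, a kinetochore motor, had log2 differences of 0.26 and -0.16, CENPF 0.13 and -0.26, and BUB1B, the checkpoint protein BubR1, 0.21 and -0.14. AURKB was positive in both numbers, at 0.13 and 0.19, and CCNB2 negative in both, at -0.08 and -0.06. Each of these differences rests on 1 library against 1 and has no test. In the fit on group alone the G2/M median went from 0.02 to -0.12 without WT replicate 1 and to 0.16 without WT replicate 2.

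**Figure D4:**
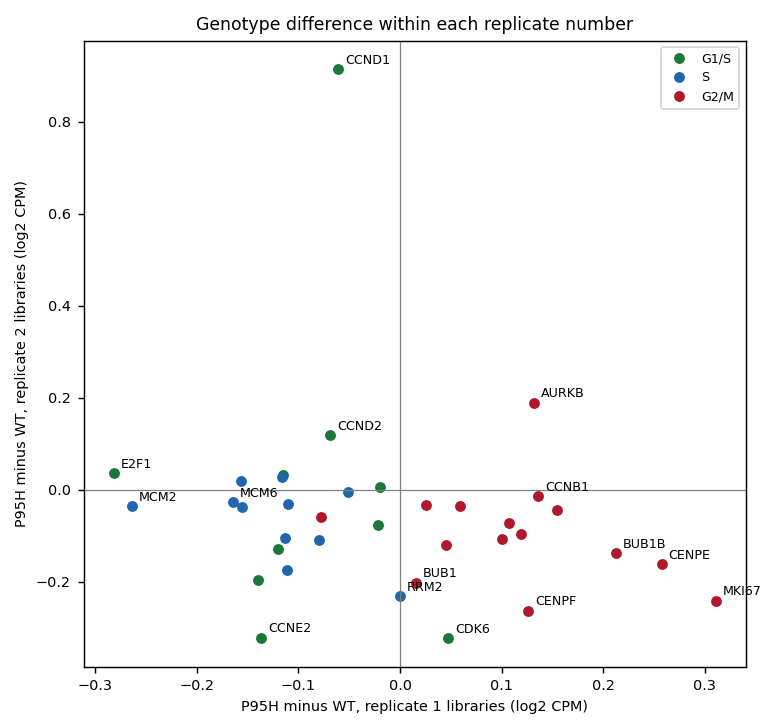
Log2 difference of P95H minus WT for each of the 36 genes in replicate 1 (x axis) and in replicate 2 (y axis), coloured by phase. Most G2/M genes (red) lie at the lower right, positive in the first and negative in the second, and S phase genes (blue) at the left, while CCND1 stands alone at 0.91 on the y axis.

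The replicate numbers cross the genotypes, so the difference between number 2 and number 1 can be fitted with genotype as a term. It shows how these genes vary between libraries of the same genotype. Of the 36 genes 12 passed, 9 higher and 3 lower in the replicate 2 libraries, against a background of 19.2% of all genes called (10.3% higher, 8.87% lower). The higher ones were 6 G2/M genes, both E-type cyclins and RRM2, and the lower ones the D-type cyclins CCND1 and CCND2 with MCM6. Both replicate 2 libraries lay above both replicate 1 libraries in 15 of the 36 and below them in 6, where 56.9% of all genes did not overlap (27.7% above, 29.2% below). The mitochondrial share of counts given above differs in the same libraries, and its part in these differences was not tested.

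CCND1 had the largest difference of the 36, a log2 difference of -1.05 (SE 0.15, edgeR adjusted p 1.53e-06), at -1.56 within WT and -0.58 within P95H. By DESeq2's test its adjusted p was 0.150. CCND2 (ENSG00000118971, chromosome 12, 4273772 to 4305350, plus strand) fell by 0.39 on the log2 scale (SE 0.08, edgeR adjusted p 0.000262), with -0.48 within WT and -0.29 within P95H. CCND3, the remaining D-type cyclin, had a difference of -0.01. The E-type cyclins went the other way. CCNE2 rose by 0.40 (SE 0.09, edgeR adjusted p 0.0016), with 0.50 within WT and 0.31 within P95H, and CCNE1 (chromosome 19, 29811898 to 29824308, plus strand) by 0.37 (SE 0.13, edgeR adjusted p 0.0443), with 0.40 and 0.34. CDK4 stood at 0.20 (SE 0.08, edgeR adjusted p 0.0512), just short of the threshold, and E2F1 at 0.17 (edgeR adjusted p 0.158). Differences of CDK6, CDK2 and CDC25A were 0.10, 0.00 and 0.06.

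Of S phase genes, MCM6 (ENSG00000076003, chromosome 2, 135839626 to 135876426, minus strand) stood at 286, 226, 256, 222 and 203 CPM. Both replicate 2 libraries lay below both replicate 1 libraries, and the uninduced library below all 4. It fell by 0.27 (SE 0.07, edgeR adjusted p 0.0081), with -0.34 within WT and -0.20 within P95H. RRM2 (chromosome 2, 10122328 to 10131419, plus strand) stood at 511.4, 669, 511.2, 569.5 and 499 CPM, and WT replicate 2 was the high library. It rose by 0.27 (SE 0.08, edgeR adjusted p 0.0102), with 0.39 within WT and 0.16 within P95H. The other helicase subunits did not pass, with log2 differences from -0.12 in MCM2 to 0.07 in MCM7. RRM1, PCNA, CDC6 and TYMS stood at -0.04, -0.06, -0.08 and -0.15. Across the 11 genes the median was -0.06, with 8 negative.

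Of the 15 G2/M genes 6 passed, all higher in the replicate 2 libraries, and 14 of 15 had a positive difference, with a median of 0.19 against -0.01 for all genes tested. With library totals in place of TMM scaling the median was 0.13, and CCNA2, CDK1 and AURKB turned negative, at -0.01, -0.05 and -0.05. CENPF (ENSG00000117724, chromosome 1, 214603195 to 214664588, plus strand) stood at 629, 938, 687, 781.5 and 755 CPM. WT replicate 2 was the highest and WT replicate 1 the lowest of the 5. Its log2 difference was 0.38 (SE 0.08, edgeR adjusted p 0.000705), at 0.58 within WT and 0.19 within P95H. CENPE (chromosome 4, 103105806 to 103198409, minus strand) stood at 158, 220.3, 189, 197 and 186 CPM and rose by 0.27 (SE 0.08, edgeR adjusted p 0.0183). The rise was 0.48 within WT and 0.06 within P95H, whose 2 libraries were nearly level.

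BUB1 (chromosome 2, minus strand) stood at 283, 362, 286, 314 and 327 CPM and BUB1B (chromosome 15, 40161023 to 40221136, plus strand) at 167, 224, 193.6, 203 and 204 CPM. BUB1 rose by 0.25 (SE 0.08, edgeR adjusted p 0.0193) and BUB1B by 0.24 (SE 0.08, edgeR adjusted p 0.0263). Within WT and P95H the differences were 0.35 and 0.14 for BUB1, and 0.42 and 0.07 for BUB1B. FOXM1, a transcription factor of G2/M genes (chromosome 12, 2857681 to 2877155, minus strand), stood at 97.9, 119.6, 102, 117 and 116 CPM. It rose by 0.24 (SE 0.08, edgeR adjusted p 0.0218), with 0.29 within WT and 0.19 within P95H, and is overlapped on the other strand by genes with up to 1848 counts a library. CCNB1, the mitotic cyclin B1 (chromosome 5, 69167010 to 69178245, plus strand), stood at 141, 173, 155, 171 and 149 CPM. It rose by 0.22 (SE 0.08, edgeR adjusted p 0.0352), with 0.30 within WT and 0.145 within P95H. Over all 15 genes the median difference was 0.29 within WT and 0.06 within P95H. Whether the 2 genotypes differed in this was not tested.

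The count of 12 depended on how libraries were scaled and tested. With library totals alone 7 passed (3 higher, 4 lower), 6 of them among the 12 and TYMS new, while CCNE1, CCNB1, FOXM1, BUB1, BUB1B and CENPE fell short, and the split of all genes called went from 2275 higher and 1951 lower to 1655 higher and 2800 lower. DESeq2's test passed 3 of the 36, CCND2, CCNE2 and CENPF, and without a term for genotype edgeR passed 8, not CCNE1, CCNB1, BUB1B or CENPE.

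Setting P95H after doxycycline against the library labelled uninduced asks how RNA differs with the labelled induction in the P95H line. No WT library was labelled uninduced, so effects of the mutant, of doxycycline and of expressing any SRSF2 construct cannot be told apart here. With 1 library on that side the spread was taken from the replicated groups. Of the 36 genes 0 passed edgeR's test on group alone, against a background of 0% (0 of 23970 genes, 818 at an unadjusted p under 0.05; DESeq2 called 7 genes and none of the 36). Log2 differences of P95H minus uninduced ran from -0.27 for E2F1 to 0.24 for MCM6, and 24 of 36 were positive, with medians of 0.085 for G1/S, 0.12 for S phase and 0.055 for G2/M genes against 0.00 for all genes. Without P95H replicate 2 the G1/S median was -0.02. Both P95H libraries were above the uninduced one in 19 of the 36 genes (33.0% of all genes). Among these were CDK6, MCM6, PCNA and RRM1. Both were below it in 6 (36.1% of all genes), among them E2F1 and CCND3. In each of these named genes both WT libraries lay on the same side of the uninduced one as P95H. CDK6 stood at 792 and 964 CPM in WT against 685 CPM uninduced, and E2F1 at 53.6 and 54.3 against 60.3 CPM.

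The uninduced library carries no replicate number, and results depended on the number it was placed with. Placed with number 1, 4 of the 36 passed, against a background of 15.4%. CCND1 rose by 0.66, MCM6 by 0.37 and CCND2 by 0.36, and E2F1 fell by 0.37 (edgeR adjusted p 0.00154, 0.00303, 0.00269 and 0.0115). Placed with number 2, 0 of 36 passed, against a background of 3.61%, and CCND1 stood at -0.38. With number 1, 18 of the 36 differences were positive, with medians of -0.03 for G1/S, 0.16 for S phase and -0.01 for G2/M genes. With number 2, 27 were, with medians of 0.085, 0.10 and 0.15. Over all genes 50.5% were positive with number 1 (median 0.005) and 46.3% with number 2 (median -0.031). The mitochondrial share of the uninduced library, 4.14%, was near that of the replicate 2 libraries. CCND1, CCND2 and MCM6 are the 3 of the 36 genes that passed edgeR's test as lower in number 2 than in number 1. Any link between that difference and the calls against the uninduced library was not tested.

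Binding of SRSF2 to these transcripts was read from the authors' comparison of P95H with WT by HITS-CLIP. Windows of 20 or 21 bases are listed only where the authors' adjusted p was at most 0.05 and the change at least 2-fold, so a gene without a window was not thereby shown to be unbound or unchanged. Of the 36 genes, 15 had 50 of the 8100 windows in the authors' deposited table, 39 lower and 11 higher in P95H. The windows were 78.0% lower, against 77.7% of all windows in the authors' deposited table. A window in the authors' deposited table was found for 9.69% of all 22007 genes tested in the RNA data, at whatever level of expression. Overlapping windows of a strand and direction were merged to 26 regions, 16 lower and 10 higher in P95H (61.5% lower, against 66.3% of all regions in the authors' deposited table). Regions were lower only in 8 genes, higher only in 5 and of both kinds in CENPF and MKI67, where the authors' deposited table as a whole had 1385, 744 and 255 such genes of 2384. All lay on the strand of the gene. Whether they are exonic, intronic or in a UTR was not determined here, and the sequence of the windows was not analysed here.

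MCM3 had the most windows. The authors' deposited table lists 14 overlapping windows on chromosome 6, from 52267862 to 52267950 (hg38, minus strand), 16931 bases from the start of the gene, all lower in P95H. Their WT mean was highest at 30.0 ± 26.21 CPM, in a window that had 11.74 ± 9.64 CPM in P95H, a log2 change of -1.40 in the authors' deposited table, and log2 changes ran from -1.29 to -2.02 in every window but one. In the authors' deposited table that one, with the lowest adjusted p, went from 8.27 ± 6.47 CPM in WT to 0.82 ± 0.77 CPM in P95H (the authors' means and SEM), a log2 change of -3.15 with an adjusted p of 1.8e-09. The RNA level of MCM3 differed by -0.03 on the log2 scale in the fit with the replicate number. Lower too were RRM1, at 43626 bases of a 44170-base gene (4 windows, 2.13 ± 1.76 to 0.56 ± 0.55 CPM), and MCM7 (2 windows, 2.22 ± 1.29 to 0.67 ± 0.67 CPM), as the authors' deposited table gives them. Their SEM were large beside their means.

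Higher in P95H were the S phase genes CDC6, MCM2 and PCNA, each with 1 window in the authors' deposited table. CDC6 had the largest rise of the 36 genes, 302 bases from its start, from 0.03 ± 0.03 to 3.01 ± 2.98 CPM, a log2 change of 6.51 in the authors' deposited table (adjusted p 8.52e-12). MCM2 went from 0.16 ± 0.08 to 0.62 ± 0.59 CPM and PCNA from 0.17 ± 0.14 to 0.69 ± 0.42 CPM in the authors' deposited table. For CDC6 and MCM2 the SEM of the higher genotype was nearly as large as its mean.

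Of G1/S genes 3 had windows. CDK2 was lower in P95H in 2 regions close to its start, on chromosome 12 from 55966970 to 55967014 and from 55967017 to 55967037 (hg38, plus strand), 201 and 248 bases in. The first went from 3.47 ± 1.23 to 0.71 ± 0.63 CPM, a log2 change of -2.12 with an adjusted p of 7.62e-05 in the authors' deposited table, and the second from 4.99 ± 1.71 to 2.07 ± 1.49 CPM. These were the regions of the 36 genes with the smallest SEM beside the mean. CCND2 was lower at 29093 bases of a 31579-base gene, 2.66 ± 1.23 against 0.98 ± 0.49 CPM, and CCND3 higher at 108866 bases of a 115425-base gene, 0.61 ± 0.61 against 1.92 ± 1.11 CPM, in the authors' deposited table.

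G2/M genes held 21 windows in 16 regions. BUB1B had 5 regions, all lower in P95H, the first 177 bases from its start (chromosome 15, 40161200 to 40161238, plus strand). There 4 windows were lower, the leading one going from 4.48 ± 3.10 to 0.61 ± 0.43 CPM, a log2 change of -2.69 with an adjusted p of 8.23e-07 in the authors' deposited table. BUB1 was lower as well, 18098 bases in, at 3.62 ± 1.92 against 0.72 ± 0.54 CPM in the authors' deposited table, and so was TOP2A, at 0.78 ± 0.70 against 0.22 ± 0.08 CPM. Both checkpoint genes thus had less signal in P95H in each region listed, where 66.3% of all regions in the authors' deposited table were lower. BUB1B regions farther in included WT means of 2.84 ± 2.76, 0.83 ± 0.76 and 0.62 ± 0.61 CPM, with SEM nearly as large as the means.

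MKI67 and CENPF had regions of both directions. In the authors' deposited table MKI67 was higher 22499 bases from its start, at 1.46 ± 1.10 in WT and 5.14 ± 2.94 CPM in P95H, and higher again 23037 bases in, at 0.17 ± 0.12 and 0.93 ± 0.55 CPM. It was lower 7112 bases in, where the authors' deposited table gave 1.35 ± 1.24 and 0.03 ± 0.02 CPM, a log2 change of -4.61 with an adjusted p of 8.19e-08. Of 5 regions in CENPF the authors' deposited table had 3 higher, with log2 changes of 1.12 to 1.39, and 2 lower. One of the lower went from 1.28 ± 1.21 to 0.03 ± 0.03 CPM, and the other from 0.49 ± 0.48 CPM to a P95H mean listed at 0 in the authors' deposited table. CCNB1 was higher, at 0.24 ± 0.22 against 0.97 ± 0.88 CPM in the authors' deposited table.

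**Figure D5:**
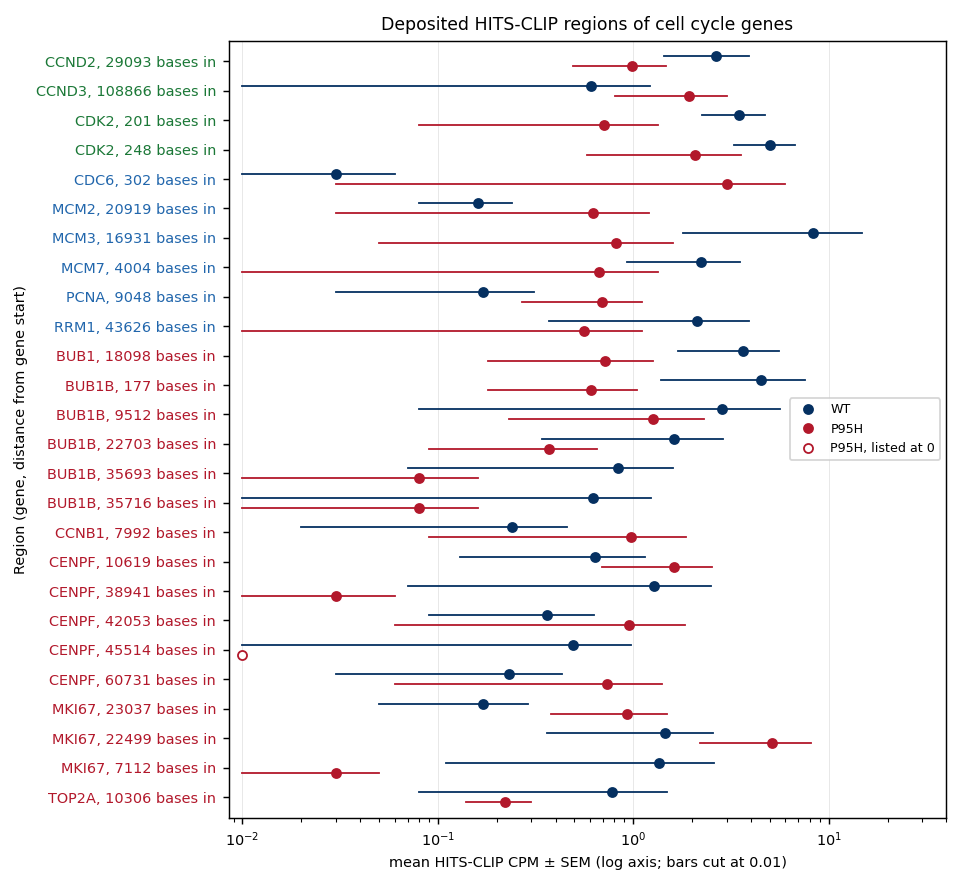
The authors' mean HITS-CLIP CPM with its SEM for WT (dark blue) and P95H (red) in the leading window of each of 26 regions, on a log axis with bars cut at 0.01; the distance of the region from the start of its gene is given with the gene. WT is higher in 16 regions and P95H in 10, and many bars of the 2 genotypes overlap.

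In 11 of these 26 regions the SEM of the genotype with the higher mean was at least 0.9 of that mean, against 25.5% of all regions in the authors' deposited table. An SEM equal to the mean is what 4 samples give when 1 of them holds the whole signal. By phase these were 9 of 16 regions of G2/M genes, 2 of 6 of S phase genes and 0 of 4 of G1/S genes in the authors' deposited table. The threshold of 0.9 was chosen after the values were seen.

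Beyond the 36, 151 other genes of the cycle in 6 lists were followed, of which 148 could be tested. In P95H against WT with the replicate number as a term 2 passed, both lower in P95H, against 0.195% of all genes called lower. CDKN1A, which encodes the CDK inhibitor p21, stood at 9.91, 19.9, 7.22, 11.2 and 9.98 CPM and fell by 0.65 (SE 0.13, edgeR adjusted p 0.00637). CCNA1, a cyclin of the germ line, stood at 1.15, 18.4, 0.836, 3.70 and 2.11 CPM and fell by 1.81 (SE 0.24, edgeR adjusted p 1.38e-05). In both the WT replicate 2 library was the high one. None of the 148 passed on group alone. Medians of the log2 difference in the fit with the replicate number were -0.08 for CDK inhibitors and pocket proteins, -0.03 for E2F, DREAM and CDK regulators, -0.04 for the replication machinery and 0.02 for kinetochore, spindle and cytokinesis genes. For the anaphase-promoting complex the median was -0.03 and for the replication and damage checkpoint -0.05, where 19 of 20 were negative. Over all genes 10801 of 22007 were negative in that fit. Of the 20 checkpoint genes, 11 were lower in P95H within both numbers (6082 of 22007 over all genes). In 9 the signs were opposite (10067 over all genes).

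Between replicate numbers 23 of the 148 passed, 16 higher and 7 lower in number 2, where 19.2% of all genes passed (10.3% higher, 8.87% lower), so the share called in these lists as a whole was no larger than over all genes. Among CDK inhibitors and pocket proteins 3 of 8 rose, CDKN1A by 0.83, CDKN1B (p27) by 0.33 and CDKN2C (p18) by 0.20. Of 26 E2F, DREAM and CDK regulators 3 rose, CCNA1 by 3.30, PKMYT1, an inhibitory kinase of CDK1, by 0.32 and CCNF by 0.26. Kinetochore, spindle and cytokinesis genes had 5 of 34 higher, such as CDCA3 (0.50) and ANLN, the cytokinesis scaffold anillin (0.36), and 1 lower, CENPW (-0.30). Of 42 genes of the replication machinery 4 fell and 2 rose, with a median log2 difference of -0.04 and 29 negative (11323 of 22007 over all genes). The 4 included RPA3, of the single-strand binding complex (-0.41), and DUT, which removes dUTP (-0.30), and the 2 that rose were CDC7 (0.25) and POLE, the leading-strand polymerase (0.23). Of the anaphase-promoting complex 3 of 18 rose, ANAPC15 by 1.04, ANAPC2 by 0.73 and the activator FZR1 by 0.42. The checkpoint list had 0 of 20 higher and 2 lower, among them the kinase CHEK2 (-0.28).

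With the uninduced library placed with number 1, genes of these lists past edgeR's test had log2 differences of P95H minus uninduced led by CCNA1 (-2.18), ANAPC2 (-0.97), PKMYT1 (-0.88), FZR1 (-0.68), the checkpoint clamp gene RAD9A (-0.63), MNAT1, of the CDK-activating kinase (0.60), CDKN1A (-0.57), CDCA3 (-0.54) and E2F4 (-0.50). Smaller differences that passed included ANAPC16 (0.47) of the anaphase-promoting complex, POLE (-0.46), DUT (0.45) and POLD1 (-0.38) of the replication machinery, TIPIN (0.45) and the histone gene H2AFX (-0.32) of the checkpoint list, and ESPL1, the gene of separase (-0.38), and CKAP2 (0.34) of the spindle list. With number 1, 15.4% of all genes passed. Of 8 CDK inhibitors and pocket proteins, 0 passed as higher and 2 as lower. For 26 E2F, DREAM and CDK regulators these counts were 1 and 4, and for 42 replication machinery genes 2 and 2. For 34 genes of the spindle list they were 3 and 4, for 18 of the anaphase-promoting complex 1 and 2, and for 20 checkpoint genes 2 and 2. Placed with number 2, 6 genes of these lists passed, against a background of 3.61% of all genes. They were CCNA1 (1.11), ANAPC15 (1.08), PKMYT1 (-0.56), CKAP2 (0.35), FBXO5 (0.34) and KIF20A (0.34). PKMYT1 and CKAP2 passed with the same sign under both placings, and the sign of CCNA1 turned.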

How the data were processed

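RNA-seq was analysed from the deposited table of raw counts per Ensembl gene, 1 column per library, with 5 libraries of 37414093 to 45005605 counts. Per the submitters' processing notes, edgeR, TopHat2 2.0.14, STAR 2.5.3a and the GRCh38.p3 build were used, with no role given for each, and the sources used here do not give the counter, its strand setting or the annotation release. HITS-CLIP values come from a table of the authors' comparison between genotypes, 4 samples each. For each window it gives, per the file headers, the log2 change, the FDR (an adjusted p-value, named adjusted p in the text), and the mean CPM and its standard error in each genotype as deposited. Of 8324 entries 224 repeated a position and were dropped, and overlapping windows of 1 gene and direction were merged to regions.

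Counts were filtered with filterByExpr, scaled by TMM and tested with edgeR's quasi-likelihood test (edgeR 4.0.16, limma 3.58.1, R 4.3.3) across all genes, with Benjamini-Hochberg adjustment and a threshold of 0.05. P95H was tested against WT on 4 libraries by group alone and, as an alternative, with the replicate number as a term. P95H was tested against the library labelled uninduced on 5 libraries. Replicate number 2 was tested against number 1 with genotype as a term. Log2 differences between single libraries used a prior count of 2. DESeq2 1.42.0, other scalings and filters, and leaving out each library were alternatives. The scripts were tested on simulated data. Precision depends on depth and on the spread between libraries, and intervals on log2 differences come from edgeR's fit.

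The 36 genes and the 6 other lists were chosen with earlier results of these data known. All 36 are described. By rule, values in every library are given for genes past the threshold in a fit, the 2 of each phase with the largest P95H-WT difference, the 2 with the highest level and those with HITS-CLIP windows. Of each other list up to 4 genes past the threshold in a fit are named by size of the log2 difference, and further ones were chosen after their values were seen; 1 gene that the rule names is not reported here. Promoter entries are RefSeq's (GRCh38.p14), matched by symbol. Window sequences and exon lengths were not used here. Python 3.11.15, pandas 2.3.3 and matplotlib 3.10.9 were used.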

Additional observations from a re-analysis of the deposited data

Results flagged for a closer look

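In 5 of the 36 genes the libraries of the 2 genotypes went opposite ways from replicate number 1 to number 2, counting only genes in which both differences were at least 0.05 on the log2 scale. The differences of number 2 minus number 1 within WT and within P95H were -0.08635 and 0.06168 for CCND3, 0.2837 and -0.08556 for CDK6, -0.05557 and 0.06329 for MCM5, 0.1104 and -0.06905 for CDK1, and 0.4696 and -0.08224 for MKI67. Each difference sets 1 library against 1, and the difference between genotypes was not tested.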

How the results depend on the processing

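For P95H against WT the count of the 36 genes passing stayed at 0 in each alternative run. Over all genes the count went from 0 on group alone to 84 with a replicate block, 15 with no filter on low counts, and, within the block, 11 by DESeq2's test, 85 with DESeq2 size factors, 95 with library totals and 141 with no filter. Leaving out each library in turn gave 0 calls each time, for all genes and for the 36, but 7 to 15 of the 36 differences changed sign. Same-numbered WT and P95H libraries deviated together from their group means (r = 0.535 across 22007 genes, which are not independent), but 2 pairs are too few to show that the numbers pair the samples. Against the uninduced library the count over all genes was 866 with a replicate block that placed it with number 2, 3685 (4 of the 36) with number 1, 7 by DESeq2 and 92 with no filter. Leaving out each library gave 0 calls there too. For number 2 against 1, library totals passed 7 of the 36 and DESeq2 3 (1455 over all genes), and no genotype term 8 (2867 over all genes). Leaving out a library there left no residual degrees of freedom. Of the 11 HITS-CLIP windows and 10 regions higher in P95H, 6 and 5 had an adjusted p of at most 0.01. A change of at least 4-fold held in 14 lower and 3 higher windows (10 and 3 regions), and a mean at or above the table's median in 19 and 1 windows (3 and 1 regions). Combining the block with a second change, and the shorter promoter window, were added after seeing the data. The planned look at window sequences was not run. Within a comparison, none of the 36 genes passed a test with opposite signs. CCND1 and CCND2 passed against the uninduced library placed with number 1 (0.66 and 0.36). With number 2 both turned negative (-0.38 and -0.02) and did not pass. CCNA1, outside the 36, passed with opposite signs under the 2 placings of the uninduced library (-2.18 and 1.11).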

Other observations

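Of 151 other genes of the cell cycle, 29 had 91 windows in the authors' deposited table, 73 lower and 18 higher in P95H, or 80.2% lower against 77.7% of all windows there. CHAF1A, the large subunit of the chromatin assembly factor that places histones behind the replication fork, and INCENP, the scaffold of the complex that holds Aurora B, had the most, with 21 and 20 windows, each of them lower in P95H. In CHAF1A 12 overlapping windows on chromosome 19 from 4422685 to 4422740 (hg38) had a leading mean of 20.13 ± 19.26 CPM in WT and 3.69 ± 3.21 CPM in P95H in the authors' deposited table (SEM). In INCENP 10 overlapping windows on chromosome 11 from 62145619 to 62145687 went from 11.38 ± 8.79 to 0.68 ± 0.56 CPM, a log2 change of -3.95 with an adjusted p of 7.94e-13 in the authors' deposited table. LIG1, the ligase that joins Okazaki fragments, had 4 higher and 4 lower windows in the authors' deposited table, 1 of the higher ones at 4.40 CPM in WT and 11.99 CPM in P95H.

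Genes that hold the cycle back were listed in both directions. The authors' deposited table had 2 lower windows in CDKN1B, the gene of p27, with a leading log2 change of -4.93, and 2 lower windows in RB1, the retinoblastoma gene, at 1.42 ± 1.36 CPM in WT with a P95H mean listed at 0. CDKN2D, the gene of p19, had 2 higher windows, at 2.32 ± 2.28 CPM in P95H with a WT mean listed at 0 in the authors' deposited table. In WEE1, which inhibits CDK1, 3 windows were lower with a leading log2 change of -2.76 in the authors' deposited table. CLSPN, the gene of the checkpoint mediator claspin, went from 4.11 ± 3.93 CPM to 0.07 CPM, and FANCD2, of the Fanconi anemia pathway, had a log2 change of 3.90 in the authors' deposited table. In the leading windows named here of RB1, CDKN2D, CLSPN, CHAF1A, CDKN1B (1.67 ± 1.64 CPM in WT) and FANCD2 (0.92 ± 0.88 CPM in P95H) the SEM was nearly as large as the mean in the authors' deposited table.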
